A study of Mus musculus with 4 samples.

Results

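The calcium/calmodulin-dependent kinases (CaM kinases) are a family of serine/threonine kinases that are switched on by calcium bound to calmodulin. Members were taken by gene symbol from the table of read counts, and 7 of the 8 symbols looked for were analysed among 13825 genes: Camk2b, Camk2d, Camk2g, Camk1, Camk1d, Camkk1 and Camkk2. Camk2a was not analysed here. All 7 passed the filter on low counts, a mean of at least 10 reads over the libraries, which left 13084 genes for testing.

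RNA of tibialis anterior (TA) muscle, a fast muscle of the lower leg, was sequenced from adult male mice 14 days after the sciatic nerve of one leg had been cut. The WT mice gave the sham library WS and the denervated library WD, and the Fgf21KO mice gave KS and KD likewise, where Fgf21KO mice lack the growth factor gene Fgf21 in the whole body. Sham muscle came from the opposite leg, which the sample labels describe as left innervated and the study's methods as sham-operated, so sham and denervated muscles of a genotype may come from the same mice. Each group was 1 library made from 4 pooled muscles, and no difference between single groups has a replicate check.

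In muscle fibers, calcium enters the cytoplasm with each nerve-driven contraction, and CaM kinases read how often it does so. CaMKII is a multi-subunit holoenzyme built from the products of separate genes, of which Camk2b, Camk2d and Camk2g encode the beta, delta and gamma subunits. CaMKI is a single-chain kinase that needs phosphorylation by a CaM kinase kinase, encoded by Camkk1 or Camkk2, for full activity. Among the known CaM kinase substrates are the class IIa histone deacetylases, which hold back the transcription factor MEF2 until they are phosphorylated and leave the nucleus.

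Library totals ran from 25249879 reads (WS) to 34141303 reads (KS), and 3 counts corresponded to between 0.0919 and 0.129 CPM (counts scaled to library size) after scaling by the trimmed mean of M-values (TMM). Of 12 fiber markers looked for, 4 were analysed, and they summed to 37620 (WS), 26830 (WD), 35540 (KS) and 28420 CPM (KD). The sum was lower in the denervated library of each genotype, while 2 of the markers passed the test as higher after denervation and 2 as lower. The deleted gene itself, Fgf21, was not analysed here and the genotypes were taken from the labels alone. The bulk RNA also held other cells. The 11 macrophage markers summed to 35.6 and 38.1 CPM in the sham libraries and 78.1 and 78.0 CPM in the denervated libraries, and 5 of them passed the test at 2-fold or more, all higher after denervation. The 8 endothelial markers summed to 540 (WS), 250 (WD), 439 (KS) and 239 CPM (KD), with 4 at least 2-fold lower, and all 6 smooth muscle and pericyte markers analysed of 7 were at least 2-fold lower, their sum going from 705 to 294 CPM in WT and from 656 to 293 CPM in Fgf21KO. The 5 Schwann cell markers analysed of 9 summed to 64.7 (WS) and 63.7 CPM (KS) against at most 25.1 CPM in the denervated libraries, the 9 markers of fibro-adipogenic progenitors to 705, 466, 689 and 475 CPM in WS, WD, KS and KD. The 3 satellite cell markers analysed of 9 summed to 3902, 5971, 3955 and 5386 CPM, nearly all of it from Des, which is also a fiber marker, and Itga7 (log2 fold change -0.10) and Vcam1 (-0.26) did not pass the test. Of all genes tested, 26.6% passed the test as higher and 27.0% as lower, and 6.84% and 6.24% did so at 2-fold or more. No analysed marker was at 0 in any library. The part of these shifts in the CaM kinase results was not tested, and in bulk RNA fewer cells of a type cannot be told apart from less RNA per cell.

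The bases upstream of Camk2b and Camk2d, the members with the greatest rise after denervation, and of Camk1, which fell, are shown to let their promoters be compared. Each line holds the 250 bases before the RefSeq start on GRCm38.p6, written 5′ to 3′ on the gene's strand. The windows lie at chr11:6065749-6065998 (minus strand) for Camk2b, chr3:126596701-126596950 (plus strand) for Camk2d and chr6:113343923-113344172 (minus strand) for Camk1. Capitals mark the E-box letters CANNTG, the general pattern that myogenic factors bind, and the GC-box letters GGGCGG or their reverse complement.
Camk2b: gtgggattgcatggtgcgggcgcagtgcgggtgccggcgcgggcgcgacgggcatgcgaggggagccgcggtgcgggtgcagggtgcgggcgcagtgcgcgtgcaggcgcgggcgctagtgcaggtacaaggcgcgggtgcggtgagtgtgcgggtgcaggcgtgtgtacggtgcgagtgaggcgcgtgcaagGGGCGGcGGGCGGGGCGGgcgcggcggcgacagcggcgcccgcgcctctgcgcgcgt
Camk2d: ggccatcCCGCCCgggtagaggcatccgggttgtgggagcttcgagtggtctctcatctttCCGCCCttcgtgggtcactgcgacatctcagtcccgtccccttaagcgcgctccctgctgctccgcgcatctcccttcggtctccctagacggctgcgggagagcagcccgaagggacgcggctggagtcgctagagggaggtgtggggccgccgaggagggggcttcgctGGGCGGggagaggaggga
Camk1: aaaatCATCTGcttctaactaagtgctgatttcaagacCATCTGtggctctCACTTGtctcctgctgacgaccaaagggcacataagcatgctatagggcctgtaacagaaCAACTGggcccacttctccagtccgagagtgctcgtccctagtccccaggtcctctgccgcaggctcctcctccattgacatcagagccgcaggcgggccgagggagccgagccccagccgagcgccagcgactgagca
The Camk2b and Camk2d windows held 0 E-boxes and 3 GC-boxes each, with a GC content of 78.4% and 68.4%. The Camk1 window held 4 E-boxes and 0 GC-boxes, with a GC content of 58.0%. Among 32851 RefSeq promoter windows of this length, 66.2% held at least 1 E-box, 3.84% held at least 4 and 32.7% held a GC-box. The windows of Camkk1 and Camkk2 also held 0 E-boxes, with 2 and 1 GC-boxes and a GC content of 74.4% and 72.4%. Camk1d, which also fell, had 2 windows with 1 and 2 E-boxes. These held 2 and 1 GC-boxes, with a GC content of 69.2% and 48.4%, so the GC-boxes did not separate rising from falling members. Whether E-boxes do cannot be told from so few windows. Camkk1 did not pass the test for denervation, and Camk2g, which fell, has no window. No member window held the E-box CAGCTG (13.0% of all windows), the MEF2 motif (2.92%) or the full cyclic AMP response element TGACGTCA (1.55%). CANNTG and CAGCTG overlap by definition, and both strands were searched. Such a match describes letters only, and no match says nothing about whether a factor acts on the gene. RefSeq windows were matched for 6 of the 7 members, Camk2g being the exception.

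Denervation moved the members in both directions. By edgeR's quasi-likelihood test over all 4 libraries, with genotype in the model and Benjamini-Hochberg adjustment over all genes, 6 of 7 members passed at an adjusted p below 0.05, 3 higher (Camk2b, Camk2d and Camkk2) and 3 lower (Camk2g, Camk1 and Camk1d), against 53.5% of all genes tested (26.6% higher and 27.0% lower). With the added requirement of a 2-fold change, the study's criterion for a differentially expressed gene (DEG), 2 members were DEGs, Camk2b and Camk2d, both higher, against 13.1% of all genes (6.84% higher and 6.24% lower). The median absolute log2 fold change was 0.90 over the members and 0.38 over all genes. In all 7 members the sham and denervated libraries did not overlap, as in 74.8% of all genes. The test has 1 residual degree of freedom, the difference in response between the genotypes, and rests on spread shared across genes. With 1 pool per group, its p-values measure neither the spread between replicate pools nor that between mice.

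**Figure D1:**
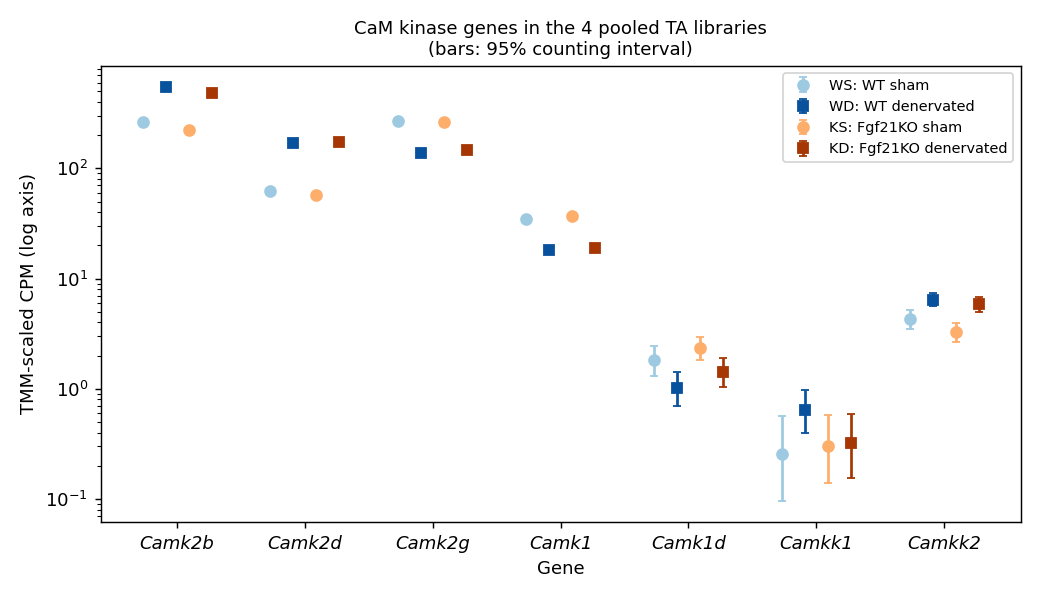
TMM-scaled CPM (log axis) of the 7 CaM kinase genes in each of the 4 pooled libraries, with circles for sham, squares for denervated and bars for the 95% counting interval. Squares lie above circles of the same genotype for Camk2b, Camk2d, Camkk1 and Camkk2 and below them for Camk2g, Camk1 and Camk1d, and the bars of Camkk1 are wide, with 6 to 21 reads per library.

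Camk2d, the gene of the delta subunit, had the greatest rise. The sham libraries held 1441 (WS) and 1687 (KS) reads and the denervated libraries 5567 (WD) and 5400 (KD), or, in the order WS, WD, KS and KD, 62.0, 170, 56.8 and 175 CPM. Both denervated libraries stood well above both sham libraries, and the genotypes were close to each other on either side. The log2 fold change with denervation was 1.54 ± 0.08 (SE; adjusted p = 2.16e-16), a 2.91-fold rise. That effect lay at the 96.9th percentile of all genes tested.

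Camk2b, whose beta subunit tethers the holoenzyme to actin in other excitable cells, had 6093 (WS) and 6568 (KS) reads in sham muscle and 17826 (WD) and 14950 (KD) reads in denervated muscle. In the order WS, WD, KS and KD, these corresponded to 262, 546, 221 and 483 CPM. The denervated libraries were again both above the sham libraries, and in each condition the Fgf21KO library was below the WT library. The log2 fold change was 1.09 ± 0.07 (SE; adjusted p = 1.42e-13), a 2.13-fold rise.

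Camk2g, the gamma subunit gene, went the other way, with 271 (WS) and 266 (KS) CPM in sham muscle and 139 (WD) and 148 (KD) CPM in denervated muscle, from 6288, 7910, 4546 and 4567 reads. Both sham libraries were near each other and above both denervated libraries. Its log2 fold change was -0.90 ± 0.07 (SE; adjusted p = 9.2e-12), a 1.87-fold fall that stayed under the 2-fold criterion.

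The make-up of CaMKII reads therefore shifted from gamma to beta and delta. Of all reads on the 3 CaMKII genes, Camk2g took 45.5% in WS and 48.9% in KS, against 16.3% in WD and 18.3% in KD. Camk2b took 44.1% in WS and 40.6% in KS, against 63.8% in WD and 60.0% in KD. Camk2d took 10.4% in each sham library, 19.9% in WD and 21.7% in KD. Each of these shares had an exact 95% binomial interval of less than 1 percentage point on either side, which covers counting error only. Corrected for the length of the longest transcript, Camk2g took 49.4% (WS) and 53.0% (KS) in sham muscle and 18.7% (WD) and 21.1% (KD) in denervated muscle. With the median length of coding transcripts these were 68.5%, 71.5%, 34.2% and 37.9%, so the size of the share depends on the length used. For Camk2g that median was 822 bases against 3703 for the longest transcript, and for Camk2b 1924 against 4125. The sham shares were the higher ones with either. That follows from the reads with any fixed length per gene and is no further check.

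**Figure D2:**
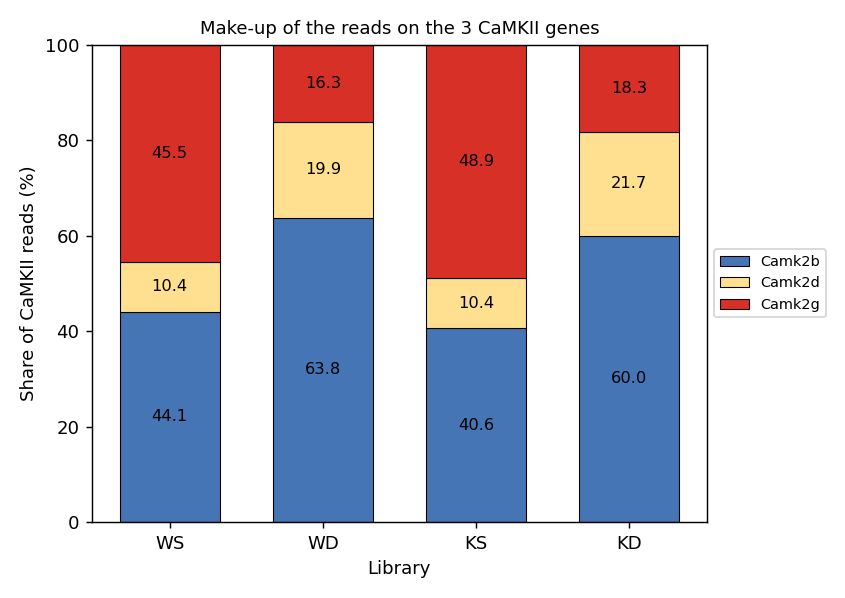
Share (%) of the reads on Camk2b, Camk2d and Camk2g in each library (stacked bars, WS and KS sham, WD and KD denervated). Camk2g falls from 45.5% to 16.3% in WT and from 48.9% to 18.3% in Fgf21KO, and the other subunits take up the difference.

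Ratios of 2 genes within a library, like the shares above, do not depend on how libraries are scaled. They come from the same reads as the shares and restate the shift as fold changes, without being a further check. There were 0.229 Camk2d reads per Camk2g read in WS and 1.22 in WD, a 5.34-fold change, and 0.213 in KS and 1.18 in KD, a 5.54-fold change. Camk2b reads per Camk2g read went from 0.969 to 3.92 in WT and from 0.830 to 3.27 in Fgf21KO. The ratio of the rising genes, Camk2d over Camk2b, changed less, by 1.32-fold in WT and 1.41-fold in Fgf21KO. The summed level of the 3 genes went from 595 to 856 CPM in WT and from 544 to 805 CPM in Fgf21KO, that is 1.44-fold and 1.48-fold.

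Levels of the members were ranked as CPM per kilobase of the longest annotated transcript (GENCODE M21). On that scale Camk2g was the highest member in the sham libraries, at 73.1 (WS) and 71.9 (KS), ahead of Camk2b at 63.6 and 53.6. In the denervated libraries Camk2b came first, at 132 (WD) and 117 (KD), ahead of Camk2g at 37.6 and 39.9. Camk1 came next and then Camk2d in both sham libraries (14.5 and 11.2 in WS, 15.5 and 10.3 in KS), and they changed places in both denervated libraries (7.54 and 30.9 in WD, 7.89 and 31.6 in KD). Camkk2 followed in every library, at 0.672 to 1.32. Camk1d and Camkk1 were the lowest everywhere, at no more than 0.339, and their order differed between WD and the other libraries. With 1 library per group, no spread between samples is available for neighbors in this order.

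Camk1, the gene of the widely expressed CaMKI alpha, had 810 (WS) and 1103 (KS) reads in sham and 590 (WD) and 585 (KD) in denervated muscle. Scaled to library size these were 34.9, 37.1, 18.1 and 18.9 CPM, with both denervated libraries below both sham libraries. The log2 fold change was -0.96 ± 0.10 (SE; adjusted p = 1.76e-09), a 1.95-fold fall, just under the 2-fold criterion. Camk1d, the CaMKI delta gene, was a low transcript with 42, 33, 70 and 44 reads in WS, WD, KS and KD (1.81, 1.01, 2.36 and 1.42 CPM). Its denervated libraries were the lower ones, but the counting intervals of sham and denervated CPM overlapped within each genotype. They ran from 1.30 to 2.44 (WS), 0.70 to 1.42 (WD), 1.84 to 2.98 (KS) and 1.03 to 1.91 (KD). The intervals of WS and KD overlapped as well. Its log2 fold change was -0.78 ± 0.32 (SE; adjusted p = 0.0432). That call was lost with DESeq2's Wald test (adjusted p = 0.279), with total counts in place of TMM (adjusted p = 0.227) and without the genotype term (adjusted p = 0.0667).

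Among the upstream kinases, Camkk2, which also phosphorylates the energy sensor AMPK, had 99 (WS) and 97 (KS) reads in sham and 210 (WD) and 180 (KD) in denervated muscle. These were 4.26, 3.27, 6.43 and 5.82 CPM, higher in both denervated libraries. The log2 fold change was 0.71 ± 0.20 (SE; adjusted p = 0.00353), a 1.64-fold rise, and DESeq2's Wald test gave an adjusted p of 0.0792. Camkk1 had 6, 21, 9 and 10 reads in WS, WD, KS and KD and did not pass the test (log2 fold change 0.71 ± 0.55 SE, adjusted p = 0.286). Reads of Camkk2 per read of its substrate gene Camk1 went from 0.122 to 0.356 in WT and from 0.0879 to 0.308 in Fgf21KO, a 2.91-fold and a 3.50-fold change.

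Each genotype was then taken on its own, as 1 denervated library over 1 sham library, with no test. In WT the log2 ratios were 1.06 for Camk2b, 1.46 for Camk2d, -0.96 for Camk2g, -0.95 for Camk1, -0.80 for Camk1d, 1.12 for Camkk1 and 0.59 for Camkk2. In Fgf21KO they were 1.13, 1.62, -0.85, -0.97, -0.70, 0.08 and 0.82 in the same order. All 7 members had the same sign in both genotypes, as did 82.8% of all genes. At least 2-fold higher were 3 members in WT (Camk2b, Camk2d and Camkk1) and 2 in Fgf21KO (Camk2b and Camk2d), and 0 were 2-fold lower. Of all genes, 14.8% in WT (7.18% higher, 7.61% lower) and 13.6% in Fgf21KO (7.51% higher, 6.1% lower) were past 2-fold. The counting interval held 0 for Camkk1 alone, from -0.04 to 2.92 in WT and from -1.36 to 1.57 in Fgf21KO.

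**Figure D3:**
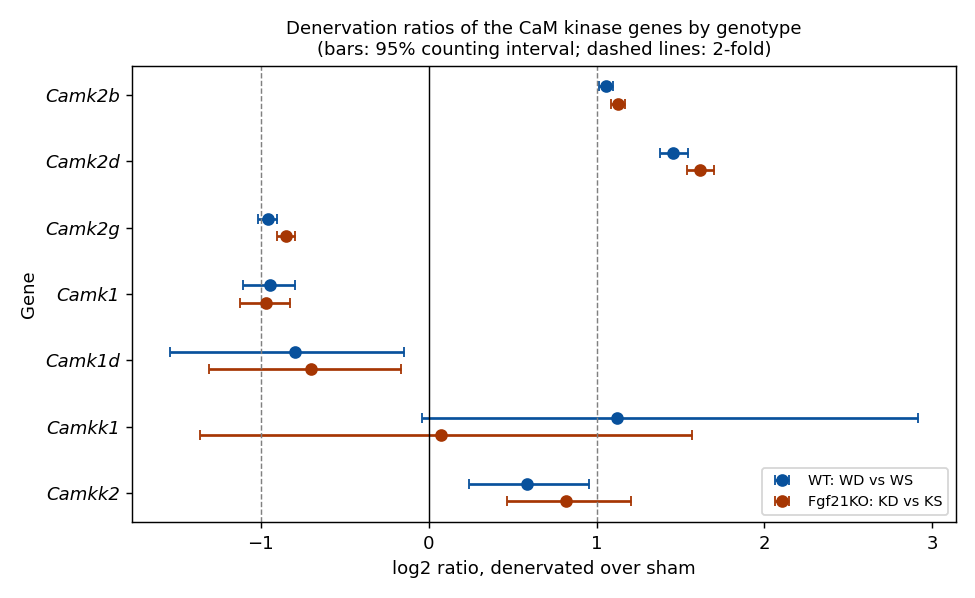
log2 ratio of denervated over sham for each CaM kinase gene in WT (blue, WD vs WS) and Fgf21KO (brown, KD vs KS), with 95% counting intervals as bars and dashed lines at 2-fold. Camk2b and Camk2d lie to the right of the upper 2-fold line in both genotypes, Camk2g and Camk1 lie near the lower one, and the interval of Camkk1 crosses 0 in both.

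The question of whether loss of Fgf21 altered the response could only be described, since the interaction uses the one residual degree of freedom. The response in Fgf21KO minus that in WT was 0.16 for Camk2d (95% counting interval 0.04 to 0.28), 0.11 for Camk2g (0.03 to 0.18) and 0.07 for Camk2b (0.01 to 0.13). These intervals leave out 0 but cover counting error only, and the differences are small beside the responses themselves. The interval held 0 for Camk1 (-0.03, from -0.24 to 0.19), Camk1d (0.10, from -0.80 to 1.03), Camkk1 (-1.05, from -3.36 to 0.87) and Camkk2 (0.23, from -0.28 to 0.76). Only Camkk1, with at most 21 reads in a library, differed by 1 or more on the log2 scale, as did 4.11% of all genes.

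No member passed the test for genotype (Fgf21KO against WT, with surgery in the model), where 0.673% of all genes passed at an adjusted p below 0.05 and 0.176% also reached 2-fold. DESeq2's Wald test likewise called 0 members. By edgeR's test the lowest adjusted p among the members was that of Camk2b, 0.291, with a log2 fold change of -0.21 ± 0.07 (SE). Camk2b was lower in Fgf21KO in both pairs of libraries, by log2 ratios of -0.25 in sham muscle (221 against 262 CPM) and -0.18 in denervated muscle (483 against 546 CPM). The log2 fold changes of Camk2d (-0.04 ± 0.07), Camk2g (0.03 ± 0.07) and Camk1 (0.08 ± 0.10) were within about 1 SE of 0. Those of the low members were larger with larger errors, 0.43 ± 0.32 for Camk1d, -0.51 ± 0.54 for Camkk1 and -0.25 ± 0.20 for Camkk2. No member was 2-fold apart between genotypes in sham or in denervated muscle, against 2.04% and 1.55% of all genes.

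CaMKII is also held in check by small inhibitor proteins. Their genes moved in opposite directions. Camk2n1 had 182, 147, 207 and 136 reads in WS, WD, KS and KD and fell (log2 fold change -0.73 ± 0.18 SE, adjusted p = 0.00131). Camk2n2 had 15, 76, 11 and 69 reads and was a DEG (2.19 ± 0.38 SE, adjusted p = 1.5e-05). Reads of Camk2n2 per read of Camk2n1 changed 6.27-fold in WT and 9.55-fold in Fgf21KO. The other 4 genes of this list, further CaM kinases, were not analysed here.

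The calmodulins bring calcium to these kinases. Of 8 calmodulin and calmodulin-buffer genes tested, 1 rose and 5 fell, and 3 were DEGs. Over all genes tested, 26.6% rose and 27.0% fell at an adjusted p below 0.05, and 13.1% were DEGs. Calm3, a calmodulin gene, had 8935, 5648, 10099 and 5524 reads in WS, WD, KS and KD and fell (log2 fold change -1.04, adjusted p = 9.58e-13), as did Pcp4l1, a relative of a calmodulin-binding peptide (-1.48, adjusted p = 5.75e-11). Strn3, a calmodulin-binding scaffold of a phosphatase complex, fell by less (-0.41, adjusted p = 2e-05). Calml4, a calmodulin-like gene, was called higher (1.11, adjusted p = 0.0377), but its 4 reads in WS stood apart from 57 in WD, 46 in KS and 51 in KD, and the log2 ratio was 2.91 in WT and 0.09 in Fgf21KO.

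Calcineurin is the calmodulin-activated phosphatase that works beside the CaM kinases. Of 12 genes for calcineurin, its regulators and the NFAT factors, 3 rose and 6 fell, with a median log2 fold change of -0.22. All genes tested had 26.6% rising, 27.0% falling, 13.1% DEGs and a median of 0.01. The catalytic genes differed, Ppp3cb falling (-0.95, adjusted p = 2.84e-12) and Ppp3ca slightly rising (0.17, adjusted p = 0.0452), while the regulatory subunit gene Ppp3r1 fell (-0.70, adjusted p = 2.4e-09). The 1 DEG was Nfatc4, with 92, 56, 119 and 31 reads in WS, WD, KS and KD (-1.57, adjusted p = 2.3e-05).

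Among 10 other calmodulin-regulated kinase genes, 5 rose and 5 fell, against 26.6% and 27.0% of all genes. Of the death-associated protein kinase genes, Dapk1 went from 21 reads in WS and 51 in KS to 416 in WD and 405 in KD (log2 fold change 3.28, adjusted p = 9.34e-14), and Dapk2 from 470 and 504 to 3201 and 3148 (2.43, adjusted p = 2.55e-19). The third, Dapk3, rose by less (0.89, adjusted p = 1.55e-08). The genes of phosphorylase kinase, which starts glycogen breakdown, split. Phka1 and Phkg1 fell by 1.28 and 1.32 on the log2 scale (adjusted p = 1.2e-14 and 5.79e-15) and Phkb fell by 0.47 (adjusted p = 2.38e-06). Phka2 and Phkg2 rose by 0.66 and 0.37 (adjusted p = 8.08e-05 and 0.0207). Dapk3, Phka2 and Phkg2 were chosen after their values were seen. Of 6 phosphatase genes that can reverse CaM kinase phosphorylation, 1 rose and 3 fell, with no DEG (13.1% of all genes were DEGs). Ppp2ca rose (0.46, adjusted p = 2.44e-06), Ppp1cb fell (-0.61, adjusted p = 4.46e-08) and Ppp1ca did not pass (-0.04, adjusted p = 0.678).

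Of 13 substrates and downstream factors, 5 rose and 7 fell, and 6 were DEGs, against 26.6%, 27.0% and 13.1% of all genes. Hdac4, a class IIa histone deacetylase, had 1030 and 1233 reads in the sham libraries WS and KS and 9437 and 9222 in WD and KD (log2 fold change 2.78, adjusted p = 4.54e-22). Its relatives Hdac5 (-1.16, adjusted p = 5.54e-13), Hdac7 (-1.06, adjusted p = 2.61e-08) and Hdac9 (-0.85, adjusted p = 4.81e-05) fell. Hdac4 was thus the only class IIa gene to rise. Mef2a rose (1.04, adjusted p = 3.78e-13) and Mef2c rose by less (0.35, adjusted p = 0.000169), while Mef2d fell (-0.29, adjusted p = 0.00101). Hdac7, Hdac9 and Mef2d were chosen after their values were seen. Srf, a transcription factor of muscle genes, fell (-1.27, adjusted p = 2.87e-14), as did Prkaa2, the AMPK alpha2 gene (-1.20, adjusted p = 7.55e-14). Prkaa1, the other AMPK alpha gene, rose (0.57, adjusted p = 1.27e-05) and was likewise chosen after its values were seen. Over the 6 lists, 15 of 51 genes tested were DEGs for denervation, 6 higher and 9 lower (29.4%, against 13.1% of all genes). The lists were chosen with earlier results of these data known, so this share is a description.

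**Figure D4:**
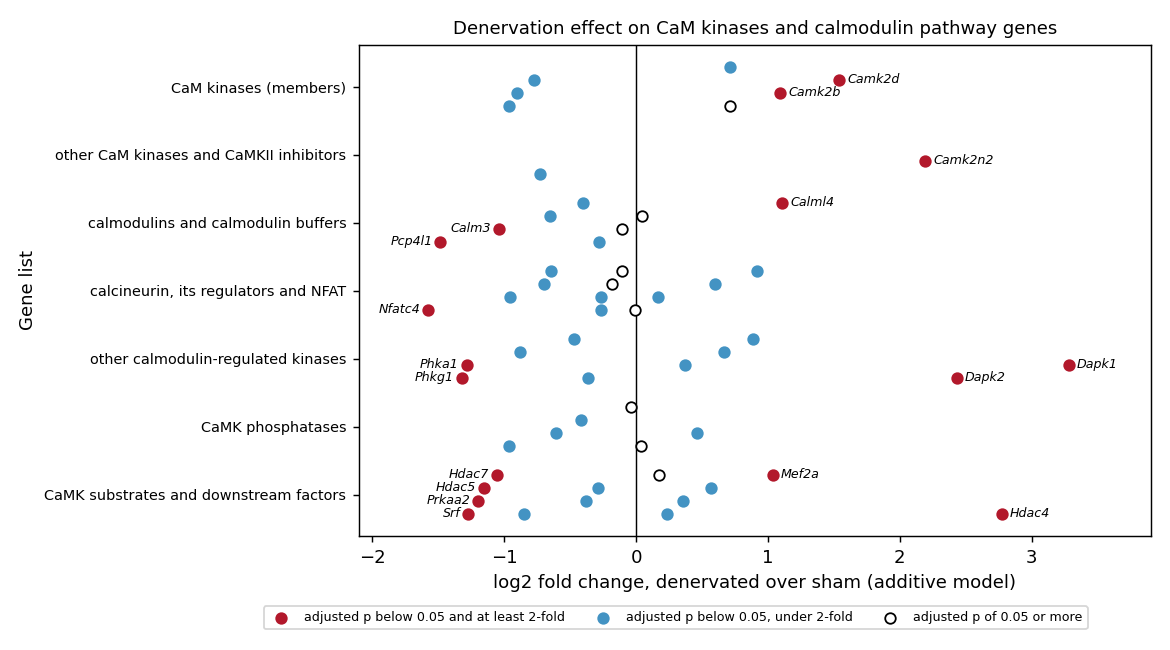
log2 fold change with denervation (additive model over the 4 libraries) for the CaM kinases and 6 lists of related genes, each point 1 gene and points spread vertically only for legibility. Red points are named DEGs, blue points passed the adjusted p below 2-fold and open points did not pass. Red points lie on both sides of 0, with Dapk1 (3.28), Hdac4 (2.78), Dapk2 (2.43) and Camk2n2 (2.19) farthest to the right.

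The genes most like each DEG member were sought by the distance between mean-centered log2 CPM profiles over the 4 libraries, among the 11316 genes whose mean count reached 50. Nearest to Camk2b were Nes, an intermediate filament gene, with 1722, 5036, 1797 and 4259 reads in WS, WD, KS and KD (distance 0.044), and Epb41l5 with 106, 300, 110 and 256 reads (0.045). Nearest to Camk2d were Fam110a with 69, 264, 82 and 257 reads (0.047) and Aldh2, a mitochondrial aldehyde dehydrogenase gene, with 3477, 12826, 4051 and 13118 reads (0.059). Within a distance of 0.2 lay 77 genes for Camk2b and 57 for Camk2d, and 4 libraries do not separate them further.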

How the data were processed

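Polyadenylated RNA of 4 pools was sequenced from a stranded library kit, 1 library per group. The authors deposited raw read counts of each gene and a second table on a log2 scale. In the second table the deposited log2 values were found to be log2(count × f + 1), with a library factor f and no correction for length. GRCm39 and FastQC come from the submitters' processing notes, and the aligner, counter and annotation are not given in the sources used here. Columns were mapped to groups through the labels and the abbreviations in the study's supplement.

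Counts were analysed with edgeR 4.0.16 and DESeq2 1.42.0 (R 4.3.3) and with scipy 1.17.1 (Python 3.11.15). Genes averaging 10 or more reads were tested with TMM scaling by edgeR's quasi-likelihood test (glmQLFit, glmQLFTest) in an additive model of genotype and surgery, with Benjamini-Hochberg adjustment over 13084 genes. The common biological coefficient of variation was 0.0681. SEs were the absolute log2 fold change divided by the square root of F. Ratios of single libraries used log2 CPM at a prior count of 2, with 95% intervals that cover counting error only and scaling factors taken as known. They were exact binomial for ratios and Fisher's exact conditional for differences of ratios. Scripts were tested on simulated data.

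Named genes were every member, the 3 highest of each list and up to 4 of its DEGs with the largest changes, and the 2 nearest profiles of each DEG member. Of the genes under this rule, 1 is not reported here. The members and lists were chosen with earlier results of these data known. Lengths came from GENCODE M21 (GRCm38), a build other than that of the files, and promoters from RefSeq (GRCm38.p6). Alternatives were scaling by DESeq2 size factors or by total counts only, testing all genes or those averaging 50 or more reads, a prior count of 0.125 or 5, the second deposited table, DESeq2's Wald test, no fold threshold and a model with 1 term.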

Additional observations from a re-analysis of the deposited data

How the results depend on the processing

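The signs of all 7 members for denervation, and Camk2b and Camk2d as DEGs, were the same under every alternative in which the gene was fitted. Without a fold threshold, 6 members were called, 3 of them lower, and 43 list genes, 16 higher and 27 lower, against 53.5% of all genes. With total counts only, which moved the median log2 ratio of all genes to 0.29 in WT and 0.36 in Fgf21KO, Camkk2 became a DEG (1.03, adjusted p = 0.00106), 3 list genes rather than 9 were called lower, and Camk2g and Camk1 stood at -0.58 and -0.64. The count of members at least 1 apart in response between genotypes was 0 rather than 1 with total counts only, a mean count of at least 50, a prior count of 5 or the deposited log2 values. That member was Camkk1, which the mean count of 50 removed together with Camk1d. The median length of coding transcripts, chosen after seeing the data, gave Camk2b over Camk2g per kilobase of 0.414 (WS), 1.68 (WD), 0.355 (KS) and 1.40 (KD), against 0.870, 3.52, 0.745 and 2.94, with the ranks of the members kept. Of the values for single genes, 303 stayed, 11 moved and 1, the Camkk2 result given above, passed the criterion anew. The 11 and the 1 all arose with total counts only. That setting leaves out the TMM factors of 0.92 (WS), 1.12 (WD), 0.87 (KS) and 1.115 (KD).

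No paired analysis was possible because a group holds a single pool and replicates are not numbered in the labels, beyond the genotype term, which sets each denervated pool beside the sham pool of its genotype. Without that term the same 2 members were DEGs. Leaving out a replicate was not run for the same reason. Depth limits Camkk1 (6 to 21 reads) and Camk1d (33 to 70 reads) most.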
